A study of Homo sapiens with 156 samples.

Results

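The MAGE antigen genes examined here were MAGEA1, MAGEA3, MAGEA4, MAGEA6, MAGEA10, MAGEA12, MAGEB1, MAGEB2, MAGEC1 and MAGEC2. They were chosen by name, and they are 10 of the 59939 genes listed in each expression table. The study profiled RNA of MV411, THP1 and NOMO1, 3 established lines of human acute myeloid leukemia that were plated 24 h ahead of compound. With 26 groups per line and 2 libraries per group, a line had 52 libraries and the series 156. The compounds were GSK032 (GSK3685032), an inhibitor of the maintenance DNA methyltransferase DNMT1, and DAC (decitabine), a cytidine analog that is built into DNA and traps DNA methyltransferases. The other compounds were GSK862 (GSK3484862), another DNMT1 inhibitor, and GSK477 (GSK3510477), known as the inactive control compound of the set. The vehicle was DMSO. GSK032 and DAC were given at 3.2, 16, 80, 400, 2000 and 10000 nM and read at day 4, and 400 nM was also read at days 1, 2 and 6. Days 2 and 4 were read for GSK862 (1000 nM) and for GSK477 (10000 nM), and days 1, 2, 4 and 6 for DMSO.

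These genes are type I MAGE genes of the X chromosome, which are active in the germ cells of the testis and silent in most adult tissues. CpG methylation of their promoters holds them silent in somatic cells, and loss of that methylation is a known route to their expression in tumours. Peptides of the proteins are shown on HLA class I molecules and can be seen by cytotoxic T cells, which is how MAGEA1 was first found in a melanoma patient. The proteins share a MAGE homology domain that binds RING ubiquitin ligases, and several of them redirect such a ligase to new targets.

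Promoter windows from RefSeq (GRCh38.p14, 250 bases before to 50 bases after each annotated start) were found for 8 of the 10 genes, all but MAGEA1 and MAGEA10. MAGEA4 had 5 windows and MAGEA12 and MAGEB1 had 2 each. For these the window nearest the annotated start of the gene was used, and what follows holds for that window alone. The 140 bases before the start are printed 5′ to 3′ on the gene's own strand, chosen because the genes differed in how early and how far they were expressed. Capitals mark CCGGAT on either strand (ATCCGG is the same 6 letters on the other strand), a form of the core of the ETS-family sites that MAGEA promoters are known for. Only these exact letters were counted, and the similar ccggaa in MAGEA3 and MAGEA6 was not. This motif and the others below were picked after the sequences had been looked at. The windows are MAGEA3 (chrX:152698654-152698793, plus strand), MAGEA4 (chrX:151912334-151912473, plus strand), MAGEA6 (chrX:152769690-152769829, minus strand), MAGEA12 (chrX:152733617-152733756, plus strand), MAGEB1 (chrX:30243591-30243730, plus strand), MAGEB2 (chrX:30215423-30215562, plus strand), MAGEC1 (chrX:141903754-141903893, plus strand) and MAGEC2 (chrX:142205291-142205430, minus strand).
MAGEA3: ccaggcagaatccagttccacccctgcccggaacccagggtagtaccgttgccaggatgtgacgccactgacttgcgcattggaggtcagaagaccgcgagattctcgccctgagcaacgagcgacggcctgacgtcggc
MAGEA4: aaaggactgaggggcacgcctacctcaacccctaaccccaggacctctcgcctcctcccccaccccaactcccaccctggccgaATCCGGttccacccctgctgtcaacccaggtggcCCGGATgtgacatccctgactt
MAGEA6: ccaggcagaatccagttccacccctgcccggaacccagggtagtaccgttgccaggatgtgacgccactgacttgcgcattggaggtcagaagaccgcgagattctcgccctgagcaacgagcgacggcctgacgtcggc
MAGEA12: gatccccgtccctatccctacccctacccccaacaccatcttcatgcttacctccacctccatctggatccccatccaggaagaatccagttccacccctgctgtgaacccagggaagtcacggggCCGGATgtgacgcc
MAGEB1: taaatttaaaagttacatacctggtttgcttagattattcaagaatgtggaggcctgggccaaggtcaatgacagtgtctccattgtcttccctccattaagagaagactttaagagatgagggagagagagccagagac
MAGEB2: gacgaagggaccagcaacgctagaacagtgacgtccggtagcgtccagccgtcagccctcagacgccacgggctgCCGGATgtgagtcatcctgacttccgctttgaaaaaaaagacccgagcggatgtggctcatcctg
MAGEC1: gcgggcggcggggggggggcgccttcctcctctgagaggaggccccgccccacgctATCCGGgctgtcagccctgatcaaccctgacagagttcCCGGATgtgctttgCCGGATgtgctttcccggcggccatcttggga
MAGEC2: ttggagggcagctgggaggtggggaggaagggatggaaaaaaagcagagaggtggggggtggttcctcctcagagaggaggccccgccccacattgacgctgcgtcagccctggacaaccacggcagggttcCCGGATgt

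The MAGEA3 and MAGEA6 windows were identical, with 0 mismatches in 300 bases. The MAGEA3, MAGEA4, MAGEA6 and MAGEA12 windows shared the 13-base run GTTCCACCCCTGC, which was found in 7 windows of 6 genes in the whole table, the other two genes being CSAG1 and MPP7. CCGGAT on either strand was present in the windows of 5 of the 8 genes (MAGEA4, MAGEA12, MAGEB2, MAGEC1 and MAGEC2), against 7.12% of all 35116 windows and 9.06% of those on the X chromosome. MAGEA4 held it 2 times and MAGEC1 3 times. The motif GCCATCTT, part of the site of the factor YY1, was present on either strand in the windows of MAGEC1 and MAGEC2 and in 2.89% of all windows, and it did not overlap CCGGAT. The 300-base windows held 21 CpG sites in MAGEB2, 19 in MAGEA3 and in MAGEA6, 14 in MAGEC1, 10 in MAGEA4 and in MAGEC2, 9 in MAGEA12 and 1 in MAGEB1, against a median of 14 over all windows. These are descriptions of letters, and no methylation was measured in these files.

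The values are FPKM, fragments scaled by transcript length and by library size. No count table was used here, so depth is known only roughly: the spacing of the low values of single-transcript genes put the libraries at about 33.9 M to 128 M fragments (M for mega). The libraries carried the myeloid markers of their labels, with DMSO medians of 82.4 FPKM in MV411, 76.6 in THP1 and 89.2 in NOMO1 for SPI1, the myeloid transcription factor PU.1. Of the 11 myeloid markers, MEIS1 was below 1 FPKM in every THP1 library and CD14 in the DMSO libraries of MV411. The tables of the lines were processed and fitted apart, so levels set side by side across lines carry no test. Whether the 2 libraries of a group are separate cultures is not in the labels, and the p-values then cover no more than the spread between libraries. Strand use in the counting is not given in the sources used here. A gene was tested in a line where it reached 1 FPKM in at least 2 of its 52 libraries. By this filter 9 of the 10 MAGE genes were tested in MV411 (not MAGEA10), 6 in THP1 (MAGEA1, MAGEA4, MAGEB1, MAGEB2, MAGEC1 and MAGEC2) and 7 in NOMO1 (MAGEA1, MAGEA3, MAGEA4, MAGEA12, MAGEB1, MAGEB2 and MAGEC2). Most passed through treated libraries alone, so counts below are out of all 10. A gene was called changed at an adjusted p below 0.05 and an absolute difference of at least 1 on the log2(FPKM + 0.5) scale. This scale understates the change of genes near 0.

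Near-identical copies share reads. Of the 31-base words in the transcripts of MAGEA3, 71.6% also occurred in other genes, 67.9% in MAGEA6, and for MAGEA6 the share was 69.7%. MAGEA12 shared 32.1%, chiefly with MAGEA2 and MAGEA2B, and MAGEA10 shared 20.9%, chiefly with the read-through gene MAGEA10-MAGEA5. The other 6 genes shared between 2.28% and 7.92%. The split of reads between MAGEA3 and MAGEA6 is therefore uncertain, and their values are best read as 1 pair. MAGEA4 overlaps an antisense gene, MAGEA4-AS1, over 1460 bases. On the same strand, MAGEB1 overlaps MAGEB4 over 464 bases, MAGEA12 the pseudogene CSAG4 over 3843 and MAGEA10 the gene MAGEA10-MAGEA5 over 5247. Reads from those stretches cannot be assigned with certainty.

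Without compound, MAGE expression came down to 2 genes. In the 8 DMSO libraries of each line, MAGEA4 ranged from 0.999 to 2.09 FPKM in MV411 (median 1.15), from 0.756 to 1.65 in THP1 (median 1.46) and from 0.0346 to 0.773 in NOMO1 (median 0.162). MAGEB2 ranged from 12.3 to 24.8 FPKM in THP1 (median 17.3), from 0.0996 to 0.342 in NOMO1 (median 0.171) and from 0 to 0.0519 in MV411. THP1 thus carried MAGEB2 as its main MAGE transcript before any treatment, at 90.0% to 95.2% of the summed FPKM of the 10 genes in its DMSO libraries of days 4 and 6. The other 8 genes were at or below 0.144 FPKM in every DMSO library of every line, and many were listed at 0.

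**Figure D1:**
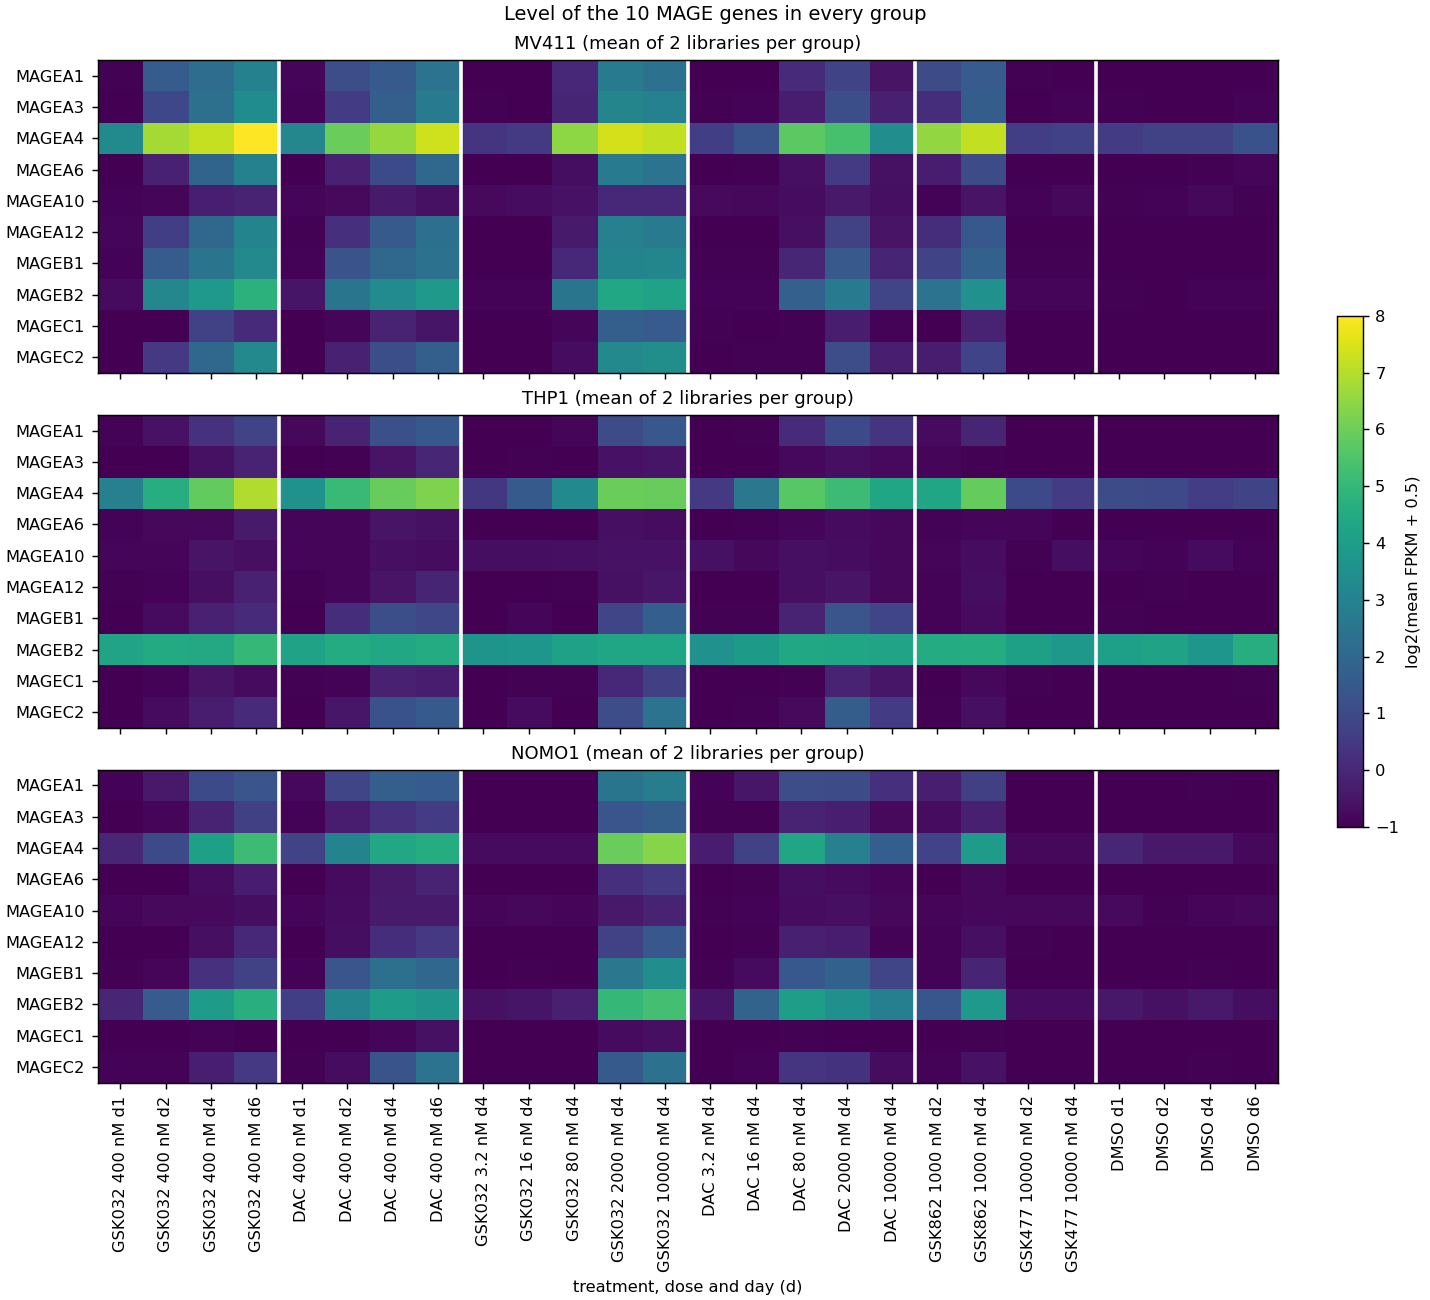
Mean FPKM of the 10 MAGE genes (rows) in the 26 groups of each line (columns: GSK032 and DAC at 400 nM by day, GSK032 and DAC at day 4 by dose, GSK862 and GSK477, then DMSO), coloured by log2(mean FPKM + 0.5). MAGEA4 is the brightest row in treated MV411, with 279.7 and 270.1 FPKM at day 6 of GSK032, and MAGEB2 in THP1 is the row that is bright in every group, DMSO included.

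Gene identifiers and coordinates below are those of the GENCODE annotation of GRCh38. MAGEA4 (ENSG00000147381, chrX:151912509-151925170, plus strand), whose protein binds the ubiquitin ligase RAD18 and which is a target of engineered T cells, rose on the first day in MV411 and THP1 and reached the highest level of the family. In MV411 at day 1 it had 6.56 and 12.3 FPKM in GSK032 cells (400 nM), against 1.04 and 0.999 in DMSO cells. At day 2 it had 114 and 104 FPKM in GSK032 cells, against 1.37 and 1.07 in DMSO cells, and at day 6 279.7 and 270.1 FPKM, against 2.09 and 1.73. Every GSK032 library at 400 nM was above every DMSO library from the first day on. The log2 difference was 2.64 (95% interval 2.18 to 3.11, limma adjusted p = 1.87e-08) at day 1 and 6.84 (95% interval 6.37 to 7.31, limma adjusted p = 8.64e-20) at day 6. With DAC at 400 nM, MV411 cells had 6.66 and 10.5 FPKM at day 1, 61.1 and 62.2 at day 2, 100.2 and 89.7 at day 4 and 166 and 156 at day 6, again above every DMSO library, with a log2 difference from DMSO of 2.55 at day 1 and 6.07 at day 6.

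In THP1, MAGEA4 had 7.46 and 6.62 FPKM in GSK032 cells at day 1, against 1.65 and 1.64 in DMSO cells, and 122 and 123 FPKM at day 6, against 1.53 and 1.06. In DAC cells it had 11.7 and 11.4 FPKM at day 1 and 72.5 and 81.3 at day 6. Both compounds stood apart from DMSO at both days, DAC with the higher libraries at day 1 and GSK032 at day 6. The log2 difference from DMSO was 6.11 (95% interval 5.64 to 6.58, limma adjusted p = 9.38e-18) for GSK032 and 5.44 (95% interval 4.97 to 5.91, limma adjusted p = 2.97e-17) for DAC at day 6. In NOMO1, MAGEA4 was slower: at day 1 it had 0.661 and 0.294 FPKM in GSK032 cells, against 0.773 and 0.172 in DMSO cells, and the groups overlapped. At day 2 it had 1.46 and 1.58 FPKM in GSK032 cells and 7.30 and 8.25 in DAC cells, against 0.370 and 0.152 in DMSO cells. By day 6 it had 36.01 and 34.8 FPKM in GSK032 cells and 22.2 and 24.9 in DAC cells, against 0.0346 and 0.108 in DMSO cells, with log2 differences of 5.98 (95% interval 5.52 to 6.43, limma adjusted p = 1.95e-18) for GSK032 and 5.39 (95% interval 4.94 to 5.85, limma adjusted p = 2.14e-18) for DAC.

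MAGEA1 (ENSG00000198681, chrX:153179285-153183880, plus strand), the founding member of the family, was close to 0 in DMSO and rose in all lines. In MV411 it had 2.54 and 2.63 FPKM at day 2 and 7.28 and 7.05 at day 6 in GSK032 cells, 1.59 and 1.79 and 5 and 4.86 FPKM at the same days in DAC cells, and at most 0.0226 FPKM in any DMSO library. In THP1 at day 6 it had 1.36 and 1.25 FPKM in GSK032 cells and 2.09 and 2.43 in DAC cells, against 0 and 0.00925 in DMSO cells. In NOMO1 at day 6 it had 2.45 and 1.77 FPKM in GSK032 cells and 2.86 and 2.30 in DAC cells, and was listed at 0 in both DMSO libraries. Treated and DMSO libraries did not overlap at these days in any line. The log2 differences from DMSO at day 6 were 3.94 (95% interval 3.68 to 4.20, limma adjusted p = 4.32e-20) in MV411, 1.84 in THP1 and 2.37 in NOMO1 for GSK032, and 3.44, 2.45 and 2.62 in the same lines for DAC. At day 1 MAGEA1 was not called in any line.

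MAGEA3 (ENSG00000221867, chrX:152698752-152702347, plus strand) and MAGEA6 (ENSG00000197172, chrX:152766136-152769747, minus strand), whose proteins act with the ubiquitin ligase TRIM28, had their highest levels in treated MV411 cells. MAGEA3 in MV411 had 10.5 and 9.46 FPKM in GSK032 cells and 6.42 and 5.43 in DAC cells at day 6, against 0.0611 and 0 in DMSO cells. MAGEA6 had 7.47 and 6.87 FPKM in GSK032 cells and 3.74 and 3.21 in DAC cells, against 0.0841 and 0 in DMSO cells. For both genes the treated libraries were all above the DMSO libraries, and the log2 differences were 4.30 and 3.83 for GSK032 and 3.60 and 2.88 for DAC. In NOMO1 at day 6 MAGEA3 had 1.34 and 0.946 FPKM in GSK032 cells and 0.981 and 1.02 in DAC cells, against 0.00717 and 0 in DMSO cells, and MAGEA6, which was not tested there, reached 0.922 and 0.926 FPKM at its highest, with GSK032 at 10000 nM. In THP1 neither gene was tested: MAGEA3 reached 0.594 and 0.357 FPKM and MAGEA6 0.119 and 0.216 in DAC cells at day 6, and 0.293 and 0.503 and 0.272 and 0.281 FPKM in GSK032 cells.

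MAGEA12 (ENSG00000213401, chrX:152733779-152737669, plus strand), another antigen gene of the same cluster, had 8.07 and 7.49 FPKM in GSK032 cells and 4.76 and 4.10 in DAC cells of MV411 at day 6, against 0.00836 and 0 in DMSO cells. In NOMO1 it had 0.546 and 0.518 FPKM in GSK032 cells and 0.964 and 0.844 in DAC cells and was listed at 0 in DMSO cells, and in THP1, untested, it had 0.406 and 0.369 and 0.375 and 0.524 FPKM in those treatments. The order of the lines, MV411 highest, was that of MAGEA3 and MAGEA6. The log2 difference from DMSO at day 6 was 4.04 with GSK032 and 3.29 with DAC in MV411, and 1.05 with GSK032 and 1.49 with DAC in NOMO1. MAGEA10 (ENSG00000124260, chrX:152133310-152138578, minus strand), a further antigen gene of the cluster, stayed below 1 FPKM in all 156 libraries and was not tested in any line. Its highest values in MV411 were 0.502 and 0.558 FPKM with GSK032 at 2000 nM and 0.547 and 0.530 at 10000 nM, against 0.0445 and 0.0987 in DMSO cells of day 4. In THP1 at 400 nM it had 0.162 and 0.214 FPKM in GSK032 cells, against 0.0521 and 0.144 in DMSO cells, at day 4, and 0.162 and 0.139 FPKM, against 0.0227 and 0.0532, at day 6. In NOMO1 it had 0.281 and 0.548 FPKM with GSK032 at 10000 nM and 0.294 and 0.293 with DAC at 400 nM, against 0.0631 and 0.0599 in DMSO cells of day 4. These treated libraries were all above their DMSO libraries. In THP1 at day 4, however, the groups overlapped at 80 and 2000 nM of GSK032 and at 80, 400, 2000 and 10000 nM of DAC. There MAGEA10 had 0.228 and 0.133 FPKM at 2000 nM of GSK032 and 0.0912 and 0.0579 at 10000 nM of DAC.

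**Figure D2:**
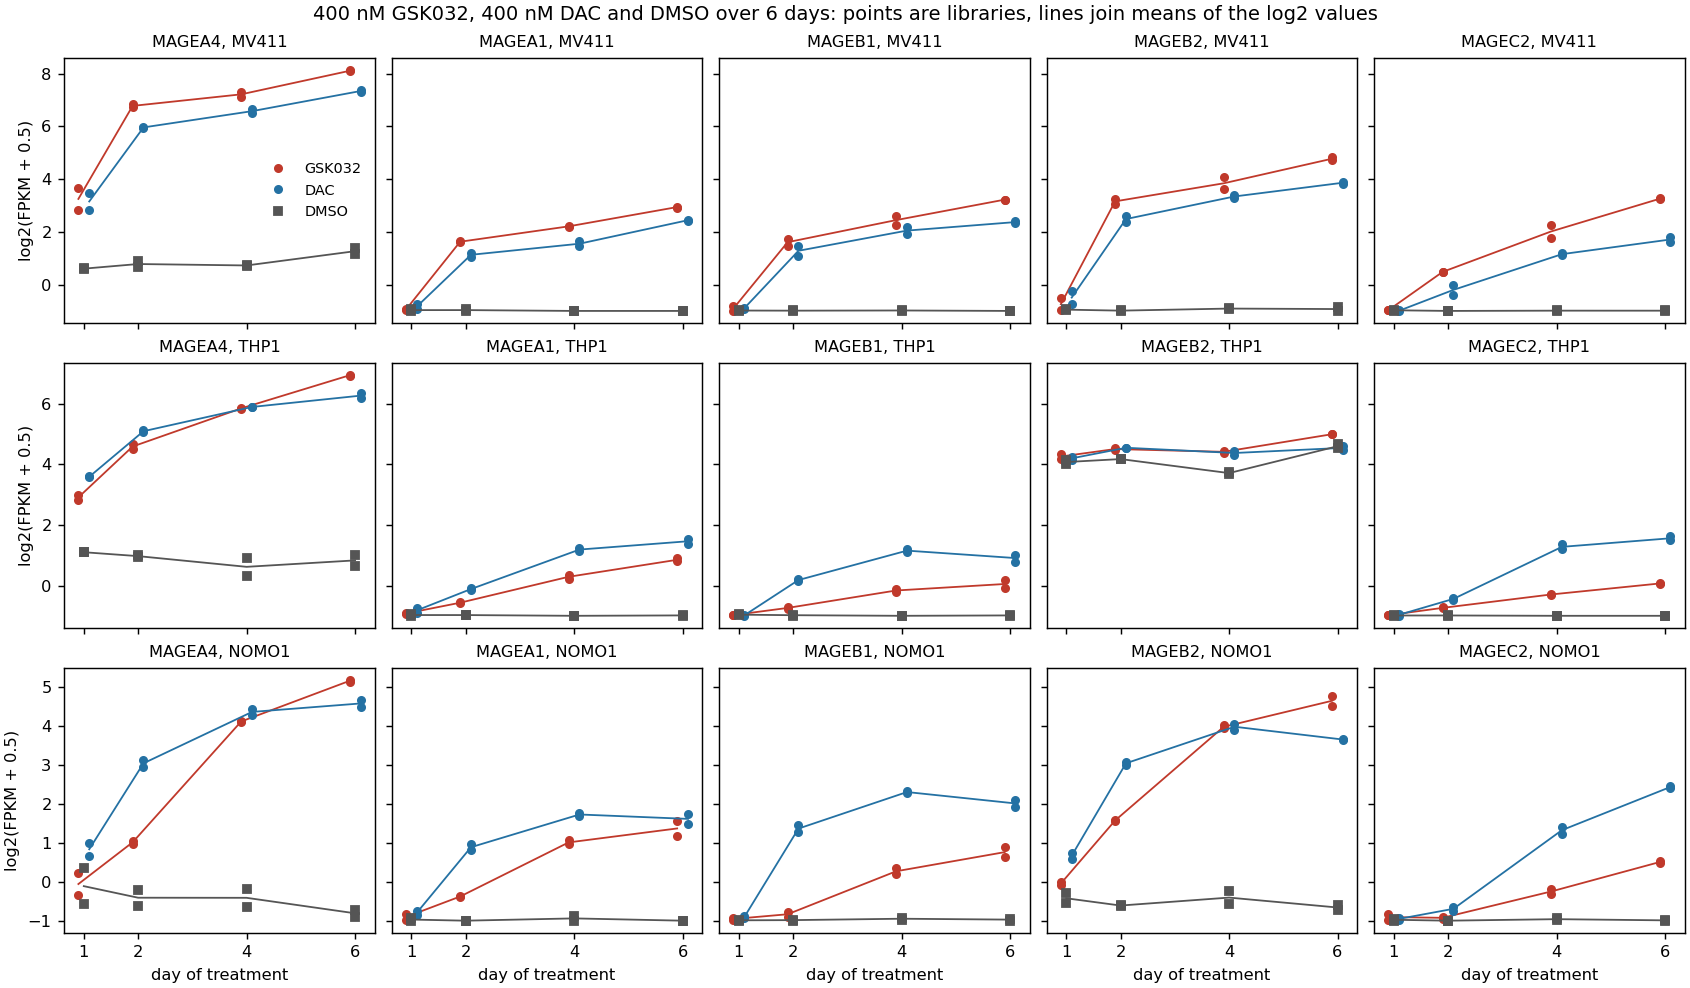
FPKM of MAGE genes at 400 nM of GSK032 or DAC and in DMSO at days 1, 2, 4 and 6, on the log2(FPKM + 0.5) scale, with 1 point per library and lines through the group means. MAGEA4 leaves the DMSO level at day 1 in MV411 and THP1, and MAGEB2 in THP1 starts between 12.3 and 24.8 FPKM in DMSO.

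MAGEB2 (ENSG00000099399, chrX:30215560-30220089, plus strand), known as a regulator of stress granules, split the lines. In MV411 it had 8.95 and 7.89 FPKM in GSK032 cells and 4.67 and 5.56 in DAC cells at day 2, against 0 and 0.00773 in DMSO cells, and at day 6 25.8 and 27.9 in GSK032 cells and 14.4 and 13.6 in DAC cells, against 0.0519 and 0 in DMSO cells. In NOMO1 at day 6 it had 27.0 and 22.6 FPKM in GSK032 cells and 11.9 and 12.3 in DAC cells, against 0.0996 and 0.167 in DMSO cells. In both lines every library from day 2 on at 400 nM of GSK032 or DAC was above every DMSO library. The log2 difference for GSK032 at day 6 was 5.70 (95% interval 5.29 to 6.11, limma adjusted p = 2.17e-19) in MV411. In NOMO1 that difference was 5.31 (95% interval 5.09 to 5.54, limma adjusted p = 2.44e-24). With DAC at day 6, MAGEB2 differed from DMSO by 4.79 in MV411 and 4.32 in NOMO1. At day 1 DAC raised it in NOMO1, with 1.01 and 1.17 FPKM in DAC cells and 0.312 and 0.184 in DMSO cells, a log2 difference of 1.09 that was 0.97, below the call, without DMSO day 1 replicate 2. In THP1, where the gene was already on, it was called at no time point, since its differences were smaller than 1 on the log2 scale: at day 6 it had 31.7 and 31.3 FPKM in GSK032 cells and 21.7 and 24.2 in DAC cells, against 24.8 and 22.7 in DMSO cells, with log2 differences of 0.40 (95% interval 0.22 to 0.58) for GSK032 and -0.05 (95% interval -0.23 to 0.13) for DAC. The difference at day 4 was 0.70 (95% interval 0.52 to 0.88) for GSK032 and 0.66 (95% interval 0.49 to 0.84) for DAC.

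MAGEB1 (ENSG00000214107, chrX:30243730-30252038, plus strand), for which the promoter window used here held 1 CpG, was at or near 0 in DMSO and was called higher at day 6 of both compounds in every line. In MV411 at day 6 it had 8.79 and 8.84 FPKM in GSK032 cells and 4.85 and 4.49 in DAC cells, and was listed at 0 in both DMSO libraries. In NOMO1 at day 2 it had 0.0350 and 0.0877 FPKM in GSK032 cells and 1.94 and 2.23 in DAC cells, against 0 and 0.0102 in DMSO cells, and at day 6 1.36 and 1.04 in GSK032 cells and 3.31 and 3.77 in DAC cells, against 0 and 0.0192. The log2 difference from DMSO in NOMO1 at day 2 was 0.15 for GSK032, which was not called, and 2.35 (95% interval 2.15 to 2.56, limma adjusted p = 1.05e-16) for DAC. In THP1 at day 6 it had 0.448 and 0.631 FPKM in GSK032 cells and 1.23 and 1.53 in DAC cells, against 0 and 0.00896 in DMSO cells. The GSK032 difference there, 1.04 (95% interval 0.82 to 1.26, limma adjusted p = 1.3e-08), was just past the call and fell to 0.91, below it, without GSK032 day 6 replicate 2.

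MAGEC2 (ENSG00000046774, chrX:142202345-142205290, minus strand), known as CT10 and a partner of TRIM28, rose later than MAGEA4. In MV411 it had 0.899 and 0.889 FPKM in GSK032 cells at day 2, when it was listed at 0 in both DMSO libraries, and 8.89 and 9.18 FPKM at day 6, against 0.00663 and 0 in DMSO cells. In DAC cells of MV411 it had 0.267 and 0.486 FPKM at day 2 and 2.98 and 2.57 at day 6. GSK032 libraries were above DAC libraries at both days, and both were above DMSO, with log2 differences from DMSO at day 6 of 4.24 (95% interval 3.91 to 4.58, limma adjusted p = 1.44e-18) for GSK032 and 2.70 (95% interval 2.37 to 3.03, limma adjusted p = 7.01e-14) for DAC. The order of the compounds was the other way round in the other lines: at day 6 MAGEC2 had 0.560 and 0.536 FPKM in GSK032 cells and 2.33 and 2.57 in DAC cells of THP1, and 0.946 and 0.896 and 4.80 and 5.03 in GSK032 and DAC cells of NOMO1, with at most 0.0199 FPKM in any DMSO library.

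MAGEC1 (ENSG00000155495, chrX:141903894-141909388, plus strand), known as CT7, was the lowest of the genes tested. In MV411 it had 1.35 and 0.996 FPKM in GSK032 cells at day 4 and 0.617 and 0.476 at day 6, and 0.441 and 0.403 and 0.265 and 0.154 in DAC cells at those days, against at most 0.00287 FPKM in DMSO cells. Both compounds had lower values at day 6 than at day 4, while the other MAGE genes tested in MV411 had higher ones. The difference between these days was not tested. The log2 difference from DMSO was 1.73 (95% interval 1.50 to 1.97, limma adjusted p = 1.17e-12) at day 4 and 1.06 (95% interval 0.82 to 1.298, limma adjusted p = 1.25e-08) at day 6 for GSK032. The day 6 call did not hold without GSK032 day 6 replicate 1, when the log2 difference was 0.96, or with every library rescaled to the same sum, when it was 0.94. For DAC it was 0.88 and 0.50 at those days, which did not pass the call. In NOMO1 no MAGEC1 value exceeded 0.208 FPKM.

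Counted over all 10 genes, with MAGEA3 and MAGEA6 as separate genes, more MAGE genes were called higher as treatment went on. In MV411 at 400 nM of GSK032, 1 gene was called higher at day 1, 7 at day 2, 9 at day 4 and 9 at day 6, against 0.136%, 1.73%, 6.55% and 8.22% of all 22007 tested genes at those days. With DAC the counts in MV411 were 1, 6, 8 and 8, against 0.404%, 2.46%, 6.86% and 7.03% of tested genes. In THP1 GSK032 gave 1, 1, 2 and 4 genes, against 0.0129%, 0.336%, 1.94% and 3.29% of 23226 tested genes, and DAC gave 1, 2, 4 and 4, against 0.116%, 1.15%, 6.23% and 7.26%. The summed THP1 count for GSK032, 8, was 5 with a pseudocount of 1 in place of 0.5. In NOMO1 GSK032 gave 0, 2, 4 and 7 genes, against 0.0241%, 0.352%, 2.55% and 4.25% of 20763 tested genes, and DAC gave 1, 4, 7 and 7, against 0.38%, 3.55%, 13.2% and 14.9%. GSK032 and DAC cells of a day were set against the same DMSO libraries. All calls against DMSO in these contrasts were in the higher direction. At day 1 of GSK032 in NOMO1, where limma called no gene with or without a variance trend, MAGEB2 had an unadjusted p under 0.05 (0.38, 95% interval 0.15 to 0.61). The gene called at day 1 was MAGEA4 in MV411 and THP1 with either compound, and MAGEB2 in NOMO1 with DAC. The day 6 effect was larger than the day 1 effect, by a test of that difference, for 9 of 10 genes with GSK032 and 8 with DAC in MV411, against 7.4% and 5.35% of tested genes. The counts were 4 and 4 in THP1, against 2.73% and 6.04%, and 7 and 7 in NOMO1, against 3.51% and 12.5%. In these bulk libraries, more cells expressing a gene and more RNA per cell cannot be told apart.

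Markers of other cell types were read in the same libraries. The summed level of the germ cell markers DDX4, DAZL, SYCP3, MAEL, TEX101, PRM1 and UTF1 at day 4 of 400 nM was 34.9 to 41.7 FPKM in GSK032 cells and 21.6 to 22.2 in DAC cells, against 2.20 to 2.50 in DMSO cells, in MV411. In THP1 it was 7.64 to 7.81 in GSK032 cells and 25.2 to 25.8 in DAC cells, against 0.429 to 0.777 in DMSO cells, and in NOMO1 1.50 to 1.95 in GSK032 cells and 34.9 to 40.1 in DAC cells, against 0.516 to 0.566 in DMSO cells. MAEL, DAZL and SYCP3, 3 of the 7 markers, were called higher with DAC in each line and with GSK032 in MV411, and MAEL alone with GSK032 in THP1 and NOMO1. UTF1 was not called, PRM1 was listed at 0 in all libraries, and DDX4 and TEX101 were below 1 FPKM. T cell markers (CD3D, CD3E, CD8A and TRAC) summed to 30.4 to 35.4 FPKM in GSK032 cells and 162 to 177 in DAC cells of NOMO1 at day 4, against 11.1 to 13.2 in DMSO cells, with CD3E below 1 FPKM. Epithelial markers (EPCAM, KRT8, KRT18 and CDH1) summed to 63.5 to 64.6 FPKM in GSK032 cells and 128.8 to 159 in DAC cells of NOMO1, against 37.8 to 38.0 in DMSO cells, with KRT8 called higher for both compounds and KRT18 for DAC. Fibroblast markers (COL1A1, COL1A2, COL3A1 and DCN) summed to 4.30 to 5.83 FPKM in GSK032 cells and 26.3 to 30.9 in DAC cells of NOMO1, against 7.19 to 7.41 in DMSO cells, with COL1A1, COL1A2 and DCN called higher for DAC and COL3A1 below 1 FPKM in all NOMO1 libraries. The 11 myeloid markers summed to 3511 to 3813 FPKM in GSK032 cells and 2197 to 2602 in DAC cells of MV411, against 1154 to 1286 in DMSO cells, with LYZ, ITGAM and MPO called higher for both compounds and CSF1R for GSK032. In NOMO1 they summed to 7045 to 7239 FPKM in GSK032 cells and 3223 to 3700 in DAC cells, against 5691 to 5903 in DMSO cells. There CD14 was called higher and FLT3 lower for both compounds, and for DAC CSF1R higher and MPO lower. In THP1 the sums were 466.8 to 486.9 FPKM with GSK032 and 575 to 582.7 with DAC, against 454.1 to 461.7. CD14 was called higher there for both, and for DAC ITGAM higher and MPO lower. In MV411 and THP1 the T cell, epithelial and fibroblast sums were at most 19.0 FPKM. The melanoma markers TYR and MLANA were below 1 FPKM in all libraries. As background to these calls at day 4 of 400 nM, DAC raised 6.86% of all tested genes of MV411, 6.23% of THP1 and 13.2% of NOMO1. GSK032 raised 6.55%, 1.94% and 2.55%, lines taken in that order. Genes called lower made up 3.34%, 1.93% and 5.94% with DAC, and 2.76%, 0.336% and 0.376% with GSK032. The part of the cell type markers in the MAGE result was not tested.

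The dose series at day 4 had different shapes for the compounds. For GSK032 in MV411, MAGEA4 was at 1.14 and 1.164 FPKM in DMSO, 0.987 and 0.642 at 3.2 nM, 1.18 and 0.716 at 16 nM, 99.4 and 75.8 at 80 nM, 158 and 139 at 400 nM, 189 and 149 at 2000 nM and 151 and 136 at 10000 nM. For DAC it was at 0.892 and 1.29 FPKM at 3.2 nM, 2.07 and 1.97 at 16 nM, 56.1 and 49.7 at 80 nM, 100.2 and 89.7 at 400 nM, 52.5 and 30.6 at 2000 nM and 10.3 and 10.3 at 10000 nM. GSK032 libraries lay between 136 and 189 FPKM from 400 nM up, while DAC peaked at 400 nM and was lower at each higher dose. Set directly against 400 nM, 10000 nM gave a log2 difference of -0.04 (95% interval -0.51 to 0.43) for GSK032, which did not pass the test, and -3.15 (95% interval -3.61 to -2.68, limma adjusted p = 3.51e-11) for DAC.

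In THP1 with GSK032, MAGEA4 was at 1.37 and 0.756 FPKM in DMSO, 3.76 and 1.105 at 16 nM, 9.56 and 8.77 at 80 nM, 56.6 and 57.8 at 400 nM, 58.2 and 65.6 at 2000 nM and 56.8 and 62.7 at 10000 nM. With DAC it was at 5.85 and 5.14 FPKM at 16 nM, 50.3 and 50.4 at 80 nM, 59.5 and 58.8 at 400 nM, 32.9 and 37.5 at 2000 nM and 18.8 and 19.7 at 10000 nM. DAC was near its top by 80 nM, and the libraries at 10000 nM were lower than those at 400 nM. The difference of 10000 nM from 400 nM was 0.06 (95% interval -0.41 to 0.53) for GSK032 and -1.59 (95% interval -2.06 to -1.13, limma adjusted p = 3.82e-06) for DAC on the log2 scale.

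In NOMO1 with GSK032, MAGEA4 was at 0.385 and 0.138 FPKM in DMSO, 0.138 and 0.0629 at 80 nM, 16.6 and 17.2 at 400 nM, 58.6 and 63.6 at 2000 nM and 77.0 and 85.4 at 10000 nM. With DAC it was at 1.42 and 1.05 FPKM at 16 nM, 20.9 and 18.5 at 80 nM, 19.0 and 21.3 at 400 nM, 7.01 and 7.12 at 2000 nM and 2.27 and 3.13 at 10000 nM. NOMO1 was thus the line in which GSK032 libraries were still higher at each dose from 80 nM to the top. It was also the line in which, at 80 nM, DAC libraries stood above DMSO while no GSK032 library exceeded the higher DMSO library. The difference of 10000 nM from 400 nM was 2.23 (95% interval 1.78 to 2.68, limma adjusted p = 3.42e-09) for GSK032 and -2.70 (95% interval -3.15 to -2.25, limma adjusted p = 1.22e-10) for DAC on the log2 scale. The call of MAGEA4 at 16 nM of DAC, 1.197, was 0.96 without DMSO day 4 replicate 2.

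MAGEB2 in NOMO1 was highest at 10000 nM of GSK032 and at 80 nM of DAC, with 0.356 and 0.376 FPKM at 80 nM, 15.8 and 14.9 at 400 nM and 37.8 and 40.5 at 10000 nM of GSK032, and 3.43 and 2.77 FPKM at 16 nM, 17.3 and 14.7 at 80 nM, 14.6 and 16.2 at 400 nM and 6.75 and 6.98 at 10000 nM of DAC. In MV411 it had 5.73 and 4.68 FPKM at 80 nM and 19.0 and 16.8 at 10000 nM of GSK032, and 3.16 and 2.56 at 80 nM, 10.05 and 9.23 at 400 nM and 1.37 and 1.34 at 10000 nM of DAC. In THP1 MAGEB2 was between 10.7 and 23.5 FPKM in every day 4 library, and it was called at no dose of either compound. MAGEC2 in THP1 reached its level at higher doses of GSK032 than MAGEA4 did, with 0.316 and 0.313 FPKM at 400 nM, 1.63 and 1.79 at 2000 nM and 4.65 and 5.19 at 10000 nM. Its increase of 10000 nM over 400 nM was 2.73 (95% interval 2.49 to 2.98, limma adjusted p = 7.65e-16) on the log2 scale, beside 0.06 for MAGEA4. With DAC, MAGEC2 in THP1 had 2.06 and 1.796 FPKM at 400 nM, 2.47 and 2.87 at 2000 nM and 0.861 and 1.161 at 10000 nM.

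**Figure D3:**
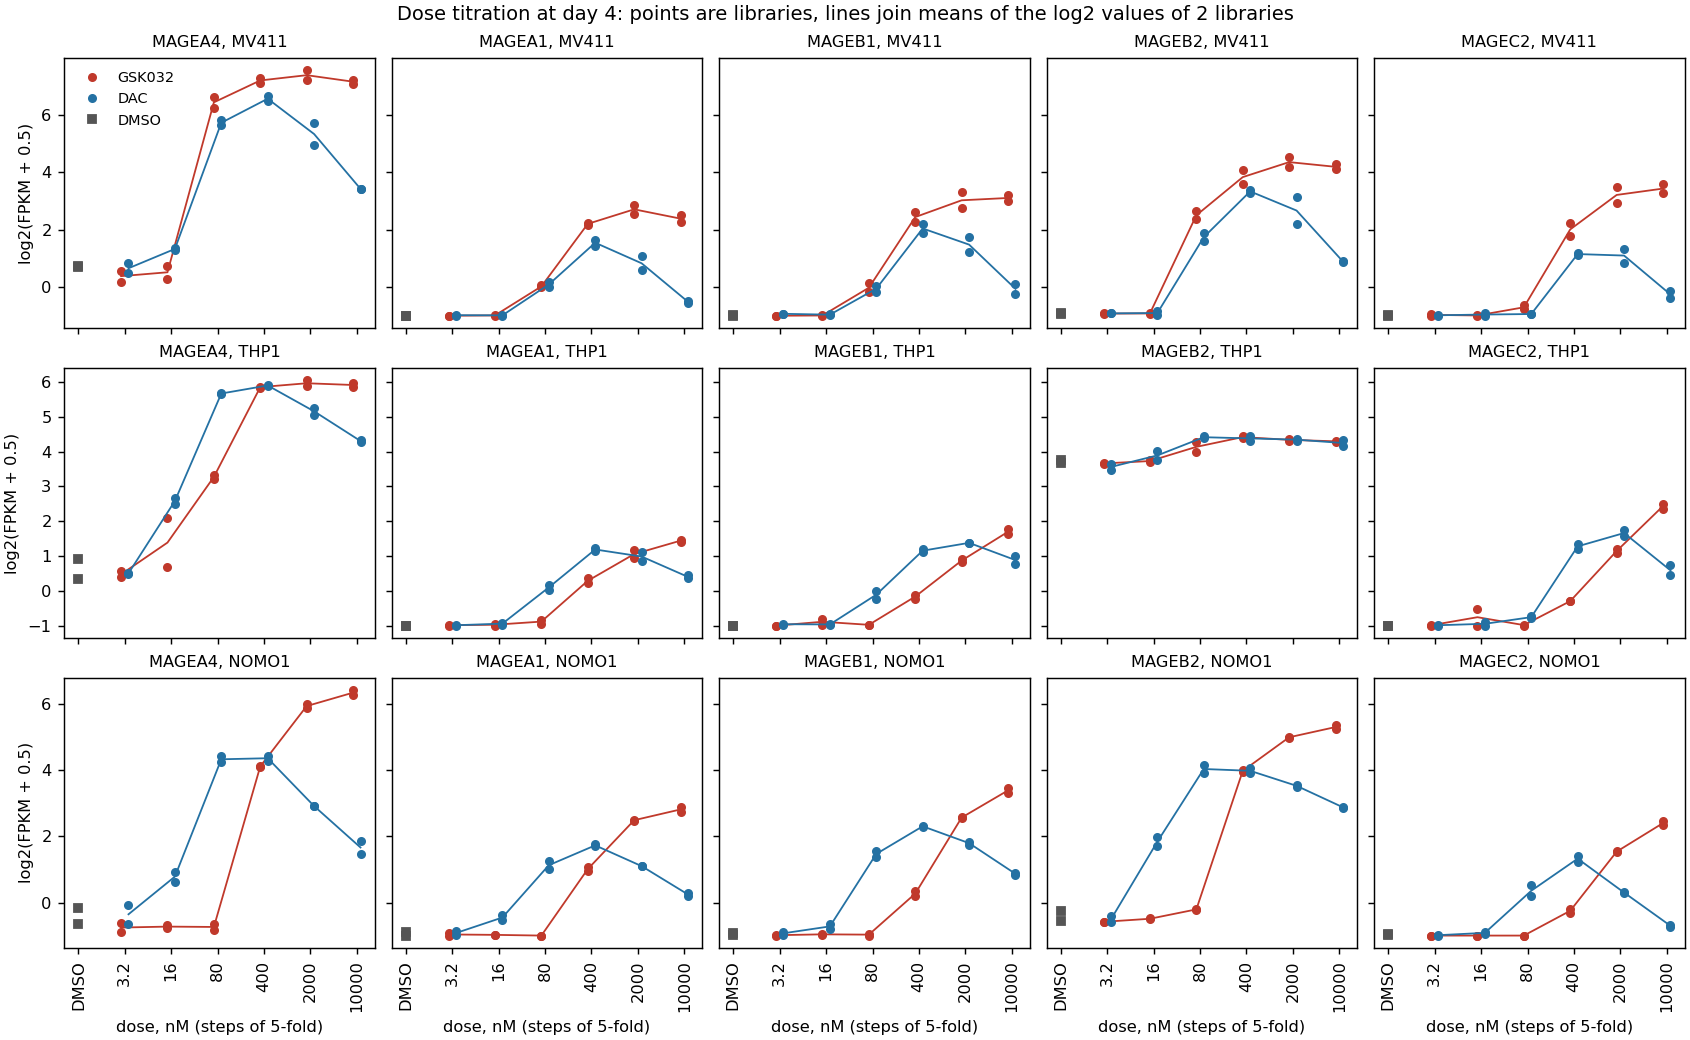
FPKM of MAGEA4, MAGEA1, MAGEB1, MAGEB2 and MAGEC2 at day 4 in DMSO and at 3.2 to 10000 nM of GSK032 or DAC, on the log2(FPKM + 0.5) scale, with 1 point per library and lines through the means of the log2 values. GSK032 curves end near or above their 400 nM level at 10000 nM. DAC curves end below it in every line, only slightly so for MAGEB2 in THP1. MAGEB2 in THP1 stays between 10.7 and 21.3 FPKM in the libraries drawn.

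In counts out of 10, GSK032 at 80, 400, 2000 and 10000 nM raised 3, 9, 9 and 9 genes in MV411, against 2.57%, 6.55%, 8.87% and 10% of all tested genes. DAC at those doses raised 3, 8, 8 and 2 genes, against 1.74%, 6.86%, 10% and 10.7%. So the share of all genes raised by DAC was as large at 10000 nM as at 2000 nM, while the count of MAGE genes was lower. The MAGEA1 calls at 80 nM were lost without replicate 2 of that dose, at a log2 difference of 0.99 for GSK032 and 0.99 for DAC. The genes still called at 10000 nM of DAC were MAGEA4 and MAGEB2. MAGEA1, MAGEA3, MAGEA6, MAGEA12, MAGEB1 and MAGEC2 had means of 0.1692 to 0.4645 FPKM at that dose, and at most 0.0841 in any DMSO library. These means lie below the pseudocount of 0.5, and a pseudocount of 0.1 gave more calls over the DAC doses. At 3.2 and 16 nM limma, with or without a variance trend, called no MAGE gene in MV411, against 0% and 0.00909% of tested genes with GSK032 and 0.00909% and 0.0954% with DAC. At an unadjusted p under 0.05 there was 1 gene, MAGEA4, at 16 nM of DAC (0.61, 95% interval 0.14 to 1.08).

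In THP1 GSK032 at 80, 400, 2000 and 10000 nM raised 1, 2, 4 and 5 genes, against 0.0904%, 1.94%, 3.63% and 4.94% of tested genes, and DAC raised 2, 4, 4 and 4, against 1.74%, 6.23%, 9.92% and 11.1%. MAGEA4 was also called at 16 nM of DAC in THP1, 1 gene against 0.0861%. The other low doses in THP1 gave 0 calls by limma, with or without a trend, against 0.00431% at 3.2 nM and 0.00431% at 16 nM of GSK032 and 0.0258% at 3.2 nM of DAC, and 1 gene at an unadjusted p under 0.05, MAGEA4 at 16 nM of GSK032. In NOMO1 GSK032 raised 0, 4, 7 and 7 genes at those 4 doses, against 0.0385%, 2.55%, 6.09% and 9.21%, and DAC raised 5, 7, 5 and 4, against 6.51%, 13.2%, 15.4% and 16.1%. At 16 nM of DAC in NOMO1 2 genes, MAGEA4 and MAGEB2, were called, against 1.04%. At 3.2, 16 and 80 nM of GSK032 and at 3.2 nM of DAC in NOMO1, limma gave 0 calls with or without a trend and 0 genes at an unadjusted p under 0.05, against 0.00963%, 0%, 0.0385% and 0% of tested genes. At the highest dose set against 400 nM, GSK032 was higher for 1 gene in MV411 (MAGEC2), 4 in THP1 and 7 in NOMO1, against 1.49%, 1.48% and 5.02% of tested genes. DAC at 10000 nM was lower than at 400 nM for 8 genes in MV411, 1 in THP1 (MAGEA4) and 7 in NOMO1, against 3.04%, 1.11% and 2.17% of tested genes. The call of MAGEA3 among the 7 in NOMO1 was lost without DAC 400 nM replicate 1, at -0.995 on the log2 scale, and without DAC 10000 nM replicate 2, at -0.97.

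GSK032 and DAC were then compared directly, at 9 matched pairs of dose and day in each line, with p-values adjusted over all tested genes within each pair. In MV411 at 400 nM limma, with or without a trend, called 0 MAGE genes at days 1, 2 and 4, and 0, 6 and 9 genes had an unadjusted p under 0.05 on those days. The shares of all tested genes called there were 0.00909% higher and 0.0182% lower at day 1, 0.164% and 0.254% at day 2, and 0.682% and 1.23% at day 4. At day 4 all 9 tested genes had log2 differences of GSK032 from DAC between 0.40 and 0.87. The lowest limma adjusted p was 0.0269 at day 2 and 1.43e-05 at day 4, and no difference on those days reached the 1 needed for a call. At day 6 MAGEC2 was called higher in GSK032 cells (1.54, 95% interval 1.21 to 1.88, limma adjusted p = 7.1e-08), 1 of 10 against 1.34% of tested genes. At 2000 nM 9 of 10 were higher in GSK032 cells, against 3.81%, by 1.55 to 2.23, and at 10000 nM 9 of 10, against 5.68%, by 2.49 to 3.74. MAGEA4 at 10000 nM, with 151 and 136 FPKM in GSK032 cells and 10.3 and 10.3 in DAC cells, differed by 3.74 (95% interval 3.27 to 4.21, limma adjusted p = 1.52e-13). The median of all genes in that contrast was itself 0.141, and rescaling every library to the same sum moved it by 0.547. The 9 calls held under that scaling.

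In THP1 DAC was ahead at low dose. MAGEA4 at 80 nM, with 9.56 and 8.77 FPKM in GSK032 cells and 50.3 and 50.4 in DAC cells, was lower in GSK032 cells, with a log2 difference of -2.40 (95% interval -2.87 to -1.93, limma adjusted p = 1.83e-08), 1 gene of 10 against 0.96% of tested genes. At 16 nM MAGEA4 was also called lower in GSK032 cells (-1.20, 95% interval -1.66 to -0.73, limma adjusted p = 0.00272), 1 of 10 against 0.099%. That call rests on the GSK032 libraries, 3.76 and 1.105 FPKM: without replicate 2 the difference was -0.49 (limma adjusted p = 0.0842), without replicate 1 it was -1.90, and with every library rescaled to the same sum it was -1.14 (limma adjusted p = 0.104). At 400 nM MAGEB1 and MAGEC2 were lower in GSK032 cells at day 4 (-1.32 and -1.57), 2 of 10 against 2.99%, and MAGEC2 at day 6 (-1.49), 1 of 10 against 2.49%. At 2000 nM limma called 0 MAGE genes with or without a trend, and 3 had an unadjusted p under 0.05, against 2.73% of tested genes higher and 5.38% lower. The lowest limma adjusted p there was 0.000446, and no difference reached 1 in size. At 10000 nM 4 of 10 were higher in GSK032 cells, MAGEA1 (1.04), MAGEA4 (1.61), MAGEC1 (1.159) and MAGEC2 (1.85), against 4.07%. The MAGEA1 call was 0.997 without DAC 10000 nM replicate 2. MAGEB2 differed by 0.05 (95% interval -0.13 to 0.23).

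In NOMO1 the order of the compounds turned with dose. At 80 nM MAGEA4 had 0.138 and 0.0629 FPKM in GSK032 cells and 20.9 and 18.5 in DAC cells, a log2 difference of -5.07 (95% interval -5.53 to -4.62, limma adjusted p = 7.82e-17), and 5 of 10 genes were lower in GSK032 cells, against 5.42% of tested genes. At 16 nM 2 of 10 were lower, MAGEA4 (-1.51) and MAGEB2 (-2.33), against 0.891%. At 400 nM 4 of 10 were lower in GSK032 cells at day 2, against 2.15%, and 2 of 10, MAGEB1 and MAGEC2, at day 4 and again at day 6, against 9.73% and 11.3%. Beside those shares of all genes, the count of 2 at days 4 and 6 is not read as a result about these genes. MAGEA4 at day 4 of 400 nM differed by -0.25 (95% interval -0.70 to 0.21), which did not pass the test. At 2000 nM 6 of 10 were higher in GSK032 cells, against 4.46%, and at 10000 nM 7 of 10, against 6.07%, by 2.35 to 4.69. The call of MAGEA12 at 2000 nM was 0.93 without GSK032 2000 nM replicate 2. MAGEA4 at 10000 nM had 77.0 and 85.4 FPKM in GSK032 cells and 2.27 and 3.13 in DAC cells, a log2 difference of 4.69 (95% interval 4.23 to 5.14, limma adjusted p = 1.33e-16).

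**Figure D4:**
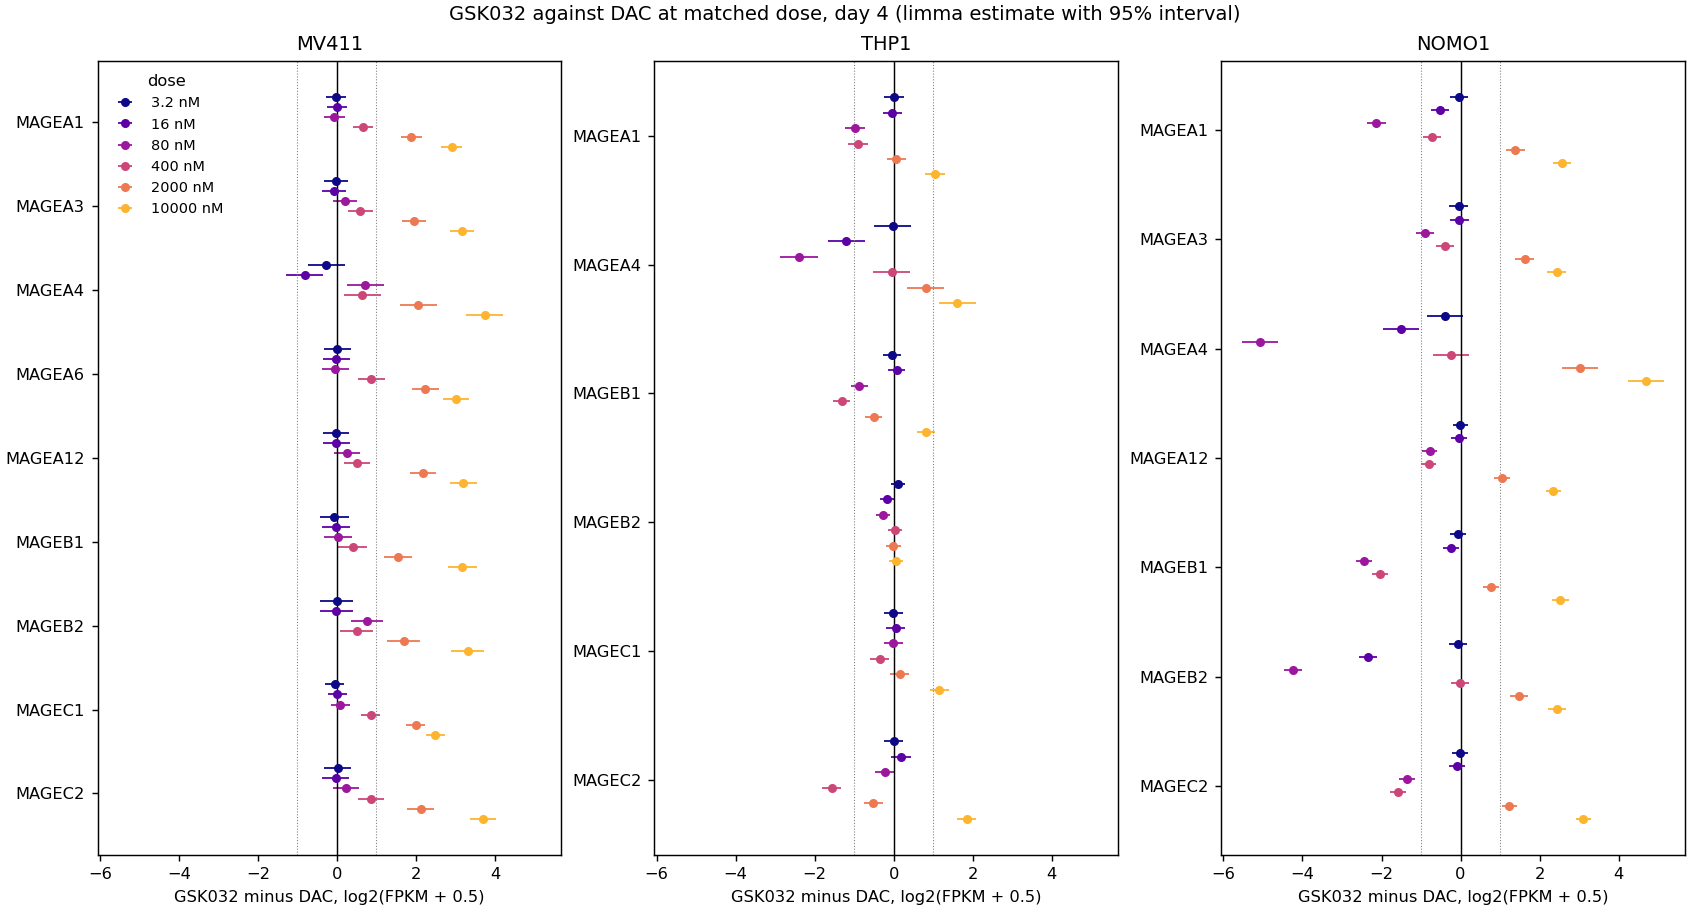
Log2 difference of GSK032 from DAC at the same dose at day 4, with its 95% interval, for each tested MAGE gene in each line. Values above 0 are higher in GSK032 cells, and dotted lines mark the call threshold of 1 in either direction. At 10000 nM the MV411 genes lie between 2.49 and 3.74 and the NOMO1 genes between 2.35 and 4.69, while MAGEB2 in THP1 lies at 0.05.

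GSK862 was read at 1000 nM, a dose that GSK032 and DAC were not given at, so its values are set beside theirs without a comparison. MAGEA4 at day 4 of GSK862 in MV411 had 147 and 138 FPKM, against 1.14 and 1.164 in DMSO cells, beside 158 and 139 with GSK032 at 400 nM. In THP1 it had 51.5 and 65.6 FPKM with GSK862, against 1.37 and 0.756 in DMSO cells, beside 56.6 and 57.8 with GSK032. In NOMO1 it had 14.8 and 14.7 FPKM with GSK862, against 0.385 and 0.138 in DMSO cells, beside 16.6 and 17.2 with GSK032. GSK862 libraries were above the DMSO libraries in every line. Its log2 difference from DMSO was 6.44 (95% interval 5.97 to 6.91, limma adjusted p = 2.57e-18) in MV411, 5.26 in THP1 and 4.34 in NOMO1. GSK862 raised 6 of 10 genes at day 2 and 8 at day 4 in MV411, against 1.35% and 4.2% of tested genes, 1 and 1 in THP1, against 0.207% and 1.17%, and 2 and 3 in NOMO1, against 0.376% and 2.41%. With a pseudocount of 0.1 in place of 0.5 the summed counts were 4 in place of 2 in THP1 and 11 in place of 5 in NOMO1. The THP1 gene was MAGEA4, and the NOMO1 genes were MAGEA4 and MAGEB2 at day 2 with MAGEA1 added at day 4. MAGEA4 at day 2 in NOMO1 (1.23, 95% interval 0.77 to 1.68, limma adjusted p = 0.00108) had an adjusted p of 0.0592 by limma without DMSO day 2 replicate 2.

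GSK477 at 10000 nM gave no call. MAGEA4 at day 4 had 1.31 and 1.04 FPKM in GSK477 cells, against 1.14 and 1.164 in DMSO cells, in MV411, and 1.02 and 0.969 FPKM, against 1.37 and 0.756, in THP1. The log2 difference was 0.01 (95% interval -0.46 to 0.48) in MV411, -0.04 (95% interval -0.51 to 0.43) in THP1 and -0.38 (95% interval -0.83 to 0.07) in NOMO1. In none of the 6 contrasts of GSK477 with DMSO was a MAGE gene called by limma, with or without a variance trend, against shares of tested genes called higher of 0.0136% at day 2 and 0.0318% at day 4 for MV411, 0.0129% and 0.00861% for THP1, and 0.0337% and 0.173% for NOMO1. Of the MAGE genes 1 had an unadjusted p under 0.05, MAGEB2 in NOMO1 at day 4 (-0.28, 95% interval -0.51 to -0.06). Set against GSK477 at the same 10000 nM and day, GSK032 raised 9 of 10 genes in MV411, 5 in THP1 and 7 in NOMO1, against 12.3%, 5.24% and 8.26% of tested genes. DAC raised 2, 4 and 4 in those lines, against 12.3%, 11.3% and 15.1%. With a pseudocount of 0.1 in place of 0.5, more calls were made in MV411 over these contrasts with GSK477.

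Culture time in DMSO gave no call either. MAGEA4 in MV411 had 2.09 and 1.73 FPKM at day 6 and 1.04 and 0.999 at day 1, a log2 difference of 0.66 (95% interval 0.19 to 1.13, limma adjusted p = 0.0534). MAGEB2 in THP1 had 24.8 and 22.7 FPKM at day 6 and 17.2 and 15.6 at day 1, a difference of 0.52 (95% interval 0.34 to 0.70, limma adjusted p = 0.000753), below the 1 needed for a call. Neither passed the call, and limma called 0 MAGE genes in each line with or without a trend, against 1.74% of tested genes higher in MV411, 0.0904% in THP1 and 0.496% in NOMO1. At an unadjusted p under 0.05 there were 1 gene in MV411 (MAGEA4), 1 in THP1 (MAGEB2) and 2 in NOMO1 (MAGEA4 and MAGEB2). The 2 in NOMO1 were lower at day 6, MAGEA4 with a log2 difference of -0.70, against 0.0867% of tested genes called lower there.

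Of 15 other type I MAGE genes, 8 reached the filter in MV411, 3 in THP1 and 5 in NOMO1, and all calls among them at day 4 of 400 nM were in the higher direction. In MV411 7 of the 15 were called higher with GSK032 and 4 with DAC, against 6.55% and 6.86% of tested genes, in THP1 1 and 3, against 1.94% and 6.23%, and in NOMO1 2 and 4, against 2.55% and 13.2%. Near copies that share reads are counted apart here. The MV411 calls include both MAGEA2 and MAGEA2B with either compound, and the NOMO1 calls both MAGEA9 and MAGEA9B. MAGEA9B, a near copy of MAGEA9, had 5.43 and 4.49 FPKM in GSK032 cells of MV411, against 0.00830 and 0 in DMSO cells (3.43, limma adjusted p = 1.83e-16), and MAGEA2, a close relative of MAGEA12 and of its copy MAGEA2B, had 4.19 and 2.68 FPKM and was listed at 0 in both DMSO libraries. Of 11 type II MAGE genes, which are expressed in many adult tissues, 0 were called by limma in 5 of the 6 contrasts, with 2 to 5 genes in each at an unadjusted p under 0.05, and NDN, the Prader-Willi region gene necdin, was called with DAC in NOMO1, at 0.533 and 0.544 FPKM in DAC cells and 0.00593 and 0.00903 in DMSO cells (1.03, limma adjusted p = 2.95e-09). Of the 11, 6 reached the filter in MV411, 5 in THP1 and 6 in NOMO1. The share of all tested genes called higher was 13.2% for DAC in NOMO1 and 1.94% to 6.86% in the other 5 contrasts. Beside those shares, the counts are not read as a result about the type II genes. The median log2 difference of the tested type II genes lay between -0.50 and 0.34 over the 6 contrasts.

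Of 12 genes for proteins that MAGE proteins are known to bind, 1 was called, against 6.55% of tested genes called higher with GSK032 in MV411, 6.23% with DAC in THP1 and 13.2% with DAC in NOMO1, so the count is not read as a result about the list. It was TRIM69, a RING ubiquitin ligase, higher with GSK032 in MV411 (5.44 and 3.92 FPKM, against 2.13 and 1.76 in DMSO cells) and with DAC in THP1 (9.83 and 9.88, against 2.48 and 1.90) and NOMO1 (12.4 and 15.99, against 5.47 and 6.31). TRIM28, the partner of MAGEA3, MAGEA6 and MAGEC2, had 214 and 192 FPKM in GSK032 cells of MV411 and 319.6 and 285 in DMSO cells, a log2 difference of -0.57 that did not pass the call. Of 16 genes for factors that act on MAGE promoters or on DNA methylation, 0 were called by limma with GSK032 in each line, with 10 genes in MV411, 8 in THP1 and 9 in NOMO1 at an unadjusted p under 0.05, against 6.55% higher and 2.76% lower of all tested genes for MV411, 1.94% and 0.336% for THP1, and 2.55% and 0.376% for NOMO1. With DAC, UHRF1, which recruits DNMT1 to replicated DNA, was lower in MV411 (54.2 and 46.0 FPKM, against 148 and 137 in DMSO cells), as was ETS2, a factor of the family that binds CCGGAT-type sites (24.5 and 25.999, against 53.5 and 50.6), 2 of 16 against 3.34% of tested genes called lower. ETS1, of the same family, was higher with DAC in THP1 (31.5 and 30.1, against 13.7 and 13.3), 1 of 16 against 6.23% of tested genes, a share near the background. CTCFL, a germ cell factor that acts on MAGEA promoters, differed by 0.29 with GSK032 in MV411 and was not called.

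Neighbours of the MAGE genes on the X chromosome were called in both directions. Of 19 genes among or beside the MAGEA genes in Xq28, MV411 had 5 called higher with GSK032 and 4 with DAC (14 tested), THP1 had 4 with each compound (11 tested), and NOMO1 had 2 and 5 (12 tested). The shares of all tested genes called higher were 6.55% with GSK032 and 6.86% with DAC for MV411, 1.94% and 6.23% for THP1, and 2.55% and 13.2% for NOMO1. PNMA5, a paraneoplastic antigen gene of the cluster, had 92.3 and 82.1 FPKM in GSK032 cells of MV411, against 0.244 and 0.193 in DMSO cells (6.93, limma adjusted p = 1.4e-20), and rose by 5.24 in THP1 and 4.95 in NOMO1 on the log2 scale. PNMA6E, of the same gene family, had 6.17 and 4.86 FPKM in GSK032 cells of MV411, against 0.0130 and 0.0183 in DMSO cells, and it too was called higher in every line with either compound. CSAG1, a cancer-testis gene whose window holds the 13-base run shared by the MAGEA promoters, was higher with GSK032 (3.11, limma adjusted p = 1.04e-12) and DAC (2.25, limma adjusted p = 8.45e-10) in MV411 and with DAC in NOMO1. GABRE, which encodes a GABA receptor subunit, was called higher in all of these contrasts but GSK032 in NOMO1. The members called lower, picked out after their values were seen, were NSDHL and CETN2: NSDHL, an enzyme of cholesterol synthesis, fell with DAC in MV411 (-1.29) and NOMO1 (-1.39), and CETN2, a centrosome protein, in NOMO1 (-1.04), against 3.34% of tested genes lower with DAC in MV411 and 5.94% in NOMO1. Of 16 neighbours of the MAGEB and MAGEC genes, FTHL17, a germ cell ferritin gene, was higher with either compound in MV411 (2.10 with GSK032 and 1.86 with DAC) and with DAC in THP1, 1 of 16 in each, near the shares of all genes called higher. GK, which encodes glycerol kinase, was lower in those same contrasts (-1.21 and -1.71 in MV411), against 2.76% of tested genes lower with GSK032 in MV411 and 1.93% with DAC in THP1.

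The genes whose level was most like the summed MAGE level over the 52 libraries of each line were PNMA5, DCAF4L1, ZNF595, PRAME and NFE4. Likeness was Pearson's r on the log2(FPKM + 0.5) scale, and genes were ranked by the lowest r of the 3 lines among 17787 genes tested in every line. That lowest r was 0.949 for PNMA5, 0.945 for DCAF4L1, 0.941 for ZNF595, 0.934 for PRAME and 0.918 for NFE4. PRAME is itself a cancer-testis antigen gene, on chromosome 22. The libraries of a line share treatments and controls, so these r values are descriptions. Among the MAGE genes tested in every line, that lowest r ran between 0.686 for MAGEC2 and 0.971 for MAGEA4, which makes up most of the sum in treated MV411 cells (77.6% to 78.3% at day 6 of GSK032).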

How the data were processed

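RNA-seq of 156 libraries was used, 52 per line. The authors deposited 1 FPKM table per line and tables of log2 fold changes. Per the submitters' processing notes, Salmon 0.12.0, DESeq2 and the genome build hg38 were used; how FPKM was made from Salmon's output, and any filter, is not given in the sources used here. Counts were not analysed here, so limma stood in for a count test. The deposited log2 fold changes, which are the authors' own, were used in a check of the files and for the values credited to that table.

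FPKM values were analysed as log2(FPKM + 0.5), for genes that reached 1 FPKM in 2 or more of a line's libraries, with limma 3.58.1 in R 4.3.3 (variance trend, 1 mean per group, all 52 libraries of a line in 1 fit). P-values were adjusted by Benjamini-Hochberg over all tested genes of a contrast. A gene was called at an adjusted p below 0.05 and an absolute log2 difference of at least 1. The pipeline was tested on simulated data. Python 3.11.15, numpy 2.4.6, pandas 2.3.3 and scipy 1.17.1 did the rest.

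Groups come from the labels. The MAGE genes and the gene lists were chosen with earlier results of these data known. All 10 MAGE genes are named. Of each other list, up to 4 called members with the largest change at day 4 of 400 nM and up to 2 uncalled ones were eligible. Likeness is Pearson's r with the log2 summed MAGE level, and the 5 genes with the highest lowest r of the 3 lines are named. Gene identifiers, coordinates and strands are those of the hg38 annotation matched by identifier, and promoter sequence is RefSeq's. The spacing of low FPKM values gave whole reads for 57.8% to 79.1% of values within a tolerance of 0.15, too few for a count test. Alternatives tried were other pseudocounts, filters and scalings, limma without the trend, MAGEA3 and MAGEA6 summed, a replicate block and leaving out each library in turn.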

Additional observations from a re-analysis of the deposited data

Results flagged for a closer look

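The effect of treatment at day 6 minus that at day 1 was tested as an interaction in limma at 400 nM, and the genes called are listed here because the 2 days differed. All differences below are on the log2(FPKM + 0.5) scale and higher at day 6.

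In MV411 with GSK032 the difference was 3.92 for MAGEA1, 4.31 for MAGEA3, 4.195 for MAGEA4, 3.83 for MAGEA6, 3.93 for MAGEA12, 4.14 for MAGEB1, 5.50 for MAGEB2, 1.06 for MAGEC1 and 4.24 for MAGEC2. With DAC it was 3.31 for MAGEA1, 3.56 for MAGEA3, 3.52 for MAGEA4, 2.88 for MAGEA6, 3.26 for MAGEA12, 3.285 for MAGEB1, 4.33 for MAGEB2 and 2.72 for MAGEC2. MAGEB2, listed at or near 0 in MV411 at day 1, had the largest difference with either compound there. The MAGEC1 difference was 0.96, below the call, without GSK032 day 6 replicate 1.

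In THP1 with GSK032 the difference was 1.79 for MAGEA1, 4.30 for MAGEA4, 1.05 for MAGEB1 and 1.06 for MAGEC2, and with DAC it was 2.30 for MAGEA1, 2.95 for MAGEA4, 1.92 for MAGEB1 and 2.54 for MAGEC2. MAGEB2, which THP1 expressed without compound, was not called. The MAGEB1 difference with GSK032 was 0.92, below the call, without GSK032 day 6 replicate 2.

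In NOMO1 with GSK032 the difference was 2.305 for MAGEA1, 1.71 for MAGEA3, 5.92 for MAGEA4, 1.035 for MAGEA12, 1.70 for MAGEB1, 4.935 for MAGEB2 and 1.43 for MAGEC2. With DAC it was 2.44 for MAGEA1, 1.52 for MAGEA3, 4.45 for MAGEA4, 1.49 for MAGEA12, 2.91 for MAGEB1, 3.22 for MAGEB2 and 3.41 for MAGEC2. Whether GSK032 and DAC differ in these differences was not tested.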

How the results depend on the processing

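Of 836 tests of a MAGE gene in a contrast, 360 were called, and none changed direction under any alternative run. Counts of calls moved by more than 1.5 times in these cases. With a pseudocount of 0.1 they were 33 in place of 21 for the DAC doses in MV411, 17 in place of 11 for 10000 nM against GSK477 in MV411, 4 in place of 2 for GSK862 and 14 in place of 9 for GSK032 against DAC in THP1, and 11 in place of 5 for GSK862 and 1 in place of 0 for DMSO day 6 against day 1 in NOMO1. With a pseudocount of 1 they were 5 in place of 8 for GSK032 at 400 nM and 3 in place of 5 for 10000 nM against 400 nM, both in THP1. Leaving out 1 library in turn gave 0 to 1 for DMSO day 6 against day 1 in NOMO1 (1 without DMSO day 1 replicate 2). By gene, a pseudocount of 1 lost 49 of the 360 calls, rescaling to the same sum lost 3, and leaving out 1 library lost a call 14 times and kept it 1582 times. Upper-quartile scaling, limma without the trend, a pseudocount of 0.1, no filter, the stricter filter and MAGEA3 and MAGEA6 summed lost none of the calls they could give. Rescaling to the same sum moved the median of all genes by -0.372 to 0.547, by over 0.1 in 30 of 114 contrasts, and upper-quartile scaling by -0.141 to 0.282, by over 0.1 in 8 of 114.

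The labels give replicate numbers but no shared batch or day for a number. With the replicate block, 341 calls were kept and none was lost, and no count moved by more than 1.5 times. The block could not be fitted for GSK862 and GSK477 at day 4 in MV411, whose table columns carry the same replicate number 2 times each. Deviations of same-numbered libraries from their group means correlated at a median of 0.144 (MV411), 0.071 (THP1) and 0.087 (NOMO1).

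Groups of 2 libraries, FPKM without counts and values near 0 limit what can be said: the pseudocount sets the size of a difference for genes listed at 0 in DMSO, and such log2 differences are no bounds.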

Other observations

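The authors' deposited table of log2 fold changes was compared with the FPKM tables across all tested genes. For 62 of 65 columns, Pearson's r with the FPKM difference of the group in the column's name was between 0.72 and 0.901, a description across genes, which are not independent replicates. For the other 3 it was between -0.00374 and 0.00854. These were DAC at 400 nM, day 1, and GSK477 at 10000 nM, day 4, in MV411, and DAC at 10000 nM, day 4, in THP1. In MV411 at day 1, MAGEA4 is at 0.04 in the authors' deposited table for DAC, while its FPKM values were 6.66 and 10.5 in DAC cells, against 1.04 and 0.999 in DMSO cells, a log2(FPKM + 0.5) difference of 2.55. In THP1 at 10000 nM, MAGEA4 is at -0.33 in the authors' deposited table for DAC, while its FPKM values were 18.8 and 19.7 in DAC cells, against 1.37 and 0.756 in DMSO cells, a difference of 3.69. No result above rests on these columns.

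The authors' deposited table also gives values for MAGE genes that did not reach the filter used here. MAGEA10 in MV411 is at 2.33 at day 4 and 4.53 at day 6 of GSK032 at 400 nM in the authors' deposited table. MAGEA6 in NOMO1 at day 4 of 400 nM is at 3.85 for GSK032 and 5.10 for DAC in the authors' deposited table.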
